A study of Mus musculus with 11 samples.

Results

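The genes described here are 10 genes of killer lymphocytes, chosen by symbol: the granule genes Gzmb, Prf1, Gzma, Gzmk and Nkg7, the receptor genes Klrd1 and Klrb1c, the CD8 coreceptor genes Cd8a and Cd8b1, and the transcription factor gene Eomes. All 10 of them were found among the 14604 genes with deposited values, and all 10 had a mean level above the low-value filter used for testing, which left 13897 genes. RNA came from regulatory T cells (Tregs) that were sorted from MC38 tumors, which grow from an implanted mouse colon adenocarcinoma line, and from spleens of mice with these tumors. The gate was live CD4+GITR+CD25+ cells after staining for CD45 and CD3, and no step that removes CD8+ or NK1.1+ cells is stated. The 11 libraries comprised 3 spleen WT, 3 spleen KO, 3 tumor WT and 2 tumor KO libraries.

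WT stands for CD177flox/flox mice and KO for CD177flox/flox/FOXP3-CreYFP mice, in which Cre driven by the Foxp3 promoter is to delete the floxed Cd177 gene in Tregs. Every mouse, WT or KO, carried the floxed gene and the MC38 implant, so no group had an unmodified Cd177 locus or no tumor. Since Cd177 is not listed among the values used, it gave no check of the WT and KO labels. Ages are not given in the labels. The labels do not say whether the libraries of a group came from separate mice, so p-values measure the spread between these libraries, which may in part be technical.

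Cytotoxic lymphocytes, mainly CD8+ T cells and natural killer (NK) cells, store perforin and granzymes in granules and release them at the contact with a target cell. Perforin opens the membrane of the target, and granzymes enter and cleave proteins inside it, which can start apoptosis. CD8 is the coreceptor that binds MHC class I and is normally off in CD4+ T cells. Activated Tregs can also make granzyme B, so granule transcripts alone do not name the cell they come from.

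The levels are log2(n + 1), where n is the authors' gene value, and its scaling is not stated. A difference of 1 is a doubling of n + 1, which understates the change of n for low genes. Levels are compared between libraries for the same gene and not between genes, since transcript length enters n in a way that is not stated. Foxp3, the Treg transcription factor, was at 6.35 ± 0.30 (SD) in the 6 spleen libraries and 5.5 ± 0.55 (SD) in the 5 tumor libraries, and Il2ra (CD25) was at 7.26 ± 0.18 and 7.0 ± 0.38, so both defining markers were present in both tissues. The summed n of a library was 712832 to 844331 in spleen and 1103159 to 1304548 in tumor. One row, the pseudogene Gm12896, held 31.4% to 42.4% of it in spleen and 31.4% to 41.3% in tumor.

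On mm10 (GRCm38), Cd8b1 (chr6:71322788-71337494) and Cd8a (chr6:71373427-71379173) lie 35.9 kb apart on the plus strand, and Gzma (chr13:113093825-113100981) and Gzmk (chr13:113171608-113225908) lie 70.6 kb apart on the minus strand. Gzmb (chr14:56258838-56262260, minus) lies 24.2 kb from Gzmc, another granzyme gene. Klrb1c (chr6:128778485-128789215, minus) and Klrd1 (chr6:129591782-129598775, plus) lie 802.6 kb apart in the NK gene complex. Prf1 is at chr10:61297833-61304680 (plus), Nkg7 at chr7:43437073-43438249 (plus) and Eomes at chr9:118478212-118486132 (plus). These are whole-gene positions, and the values sum over the exons of all transcripts of a symbol. Some sequence is shared with other genes. Of the 31-base stretches of its transcripts, Klrb1c shares 21.2% with other genes, mostly Gm44511, whose exons overlap it on the same strand. The share is 8.40% for Cd8b1 (most with Plpbp), 2.59% for Eomes, 2.51% for Cd8a, 1.35% for Gzmb (with Gzmc) and 0.392% for Prf1. It is 0 for Gzma, Gzmk, Nkg7 and Klrd1. Plpbp was at 3.81 to 4.06 in spleen and 4.01 to 4.30 in tumor libraries, and what it adds to the Cd8b1 values was not tested. Exons of Gm33460 overlap Eomes on the opposite strand, and whether the counting used strand is not given in the sources used here.

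RefSeq promoter entries (GRCm38.p6) matched 8 of the 10 genes. The 250 bases before the start site of the entry are printed for 3 genes with clearly separated higher tumor values, Gzmb (chr14:56262335-56262584, minus), Prf1 (chr10:61297586-61297835, plus) and Nkg7 (chr7:43436888-43437137, plus), and for the 1 gene with lower values, Klrb1c (chr6:128788642-128788891, minus). These start sites can differ from the ends of the gene positions above. The Nkg7 stretch thus runs into the gene as placed there, and the Klrb1c stretch lies inside it. Capitals mark matches, on either strand, to the letters TGTGGT (bound by RUNX factors), GGTGTGA (bound by T-box factors) and TGANTCA (bound by AP-1).
Gzmb: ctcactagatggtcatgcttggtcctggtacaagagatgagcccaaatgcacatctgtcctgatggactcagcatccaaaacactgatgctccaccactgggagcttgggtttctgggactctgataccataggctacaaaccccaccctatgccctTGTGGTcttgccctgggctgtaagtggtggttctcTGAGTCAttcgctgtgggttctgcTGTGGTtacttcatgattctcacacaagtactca
Prf1: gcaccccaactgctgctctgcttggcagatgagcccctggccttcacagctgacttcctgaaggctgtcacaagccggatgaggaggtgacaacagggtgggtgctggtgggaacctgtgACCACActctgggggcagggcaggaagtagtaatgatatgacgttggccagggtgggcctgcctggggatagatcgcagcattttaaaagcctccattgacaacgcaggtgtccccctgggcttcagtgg
Nkg7: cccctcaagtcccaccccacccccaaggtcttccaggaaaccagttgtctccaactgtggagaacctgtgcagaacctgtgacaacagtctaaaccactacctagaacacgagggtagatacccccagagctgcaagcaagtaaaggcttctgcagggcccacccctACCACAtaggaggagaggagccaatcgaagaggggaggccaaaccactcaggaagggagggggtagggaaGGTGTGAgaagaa
Klrb1c: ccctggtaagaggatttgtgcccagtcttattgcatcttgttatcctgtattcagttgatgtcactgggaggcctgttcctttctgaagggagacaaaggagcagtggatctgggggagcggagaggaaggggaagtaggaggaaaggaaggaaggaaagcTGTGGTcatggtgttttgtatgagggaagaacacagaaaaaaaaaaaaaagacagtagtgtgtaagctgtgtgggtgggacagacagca
The RUNX letters were found in 5 of the 8 promoters (Prf1, Gzma, Gzmb, Nkg7 and Klrb1c), and in 14.05% of all 32851 promoters of this length. Gzmb held 2 RUNX matches and the 1 AP-1 match among the 8, against 6.75% of all promoters with an AP-1 match. The T-box letters were found in Gzmk and Nkg7, against 3.33% of all promoters. Cd8a, which also had clearly separated higher tumor values but is not printed, held no match to any of these letters. Neither did Eomes. The gene with lower tumor values, Klrb1c, thus held the same RUNX letters as genes with higher ones, and these matches are a description of letters only.

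The first comparison asked how the sorted tumor-infiltrating (TI) Treg libraries differed from the spleen Treg libraries, with both genotypes pooled. Of the 10 genes, 7 were higher in tumor (Gzmb, Cd8a, Prf1, Klrd1, Cd8b1, Nkg7 and Gzmk), Klrb1c was lower, and Gzma and Eomes did not pass the test (limma with a mean-variance trend over 13897 genes, Benjamini-Hochberg adjusted p below 0.05). Calls were common in this comparison, since 43.1% of all tested genes were called higher and 35.9% lower. In 6 of the 10 genes every tumor library lay above every spleen library, as in 35.2% of all tested genes, and in 1 gene every tumor library lay below, as in 28.4%. The median difference of the 10 genes was 2.42, against 0.08 over all tested genes. Fewer cells of a type and less RNA per cell cannot be told apart in such bulk libraries.

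**Figure D1:**
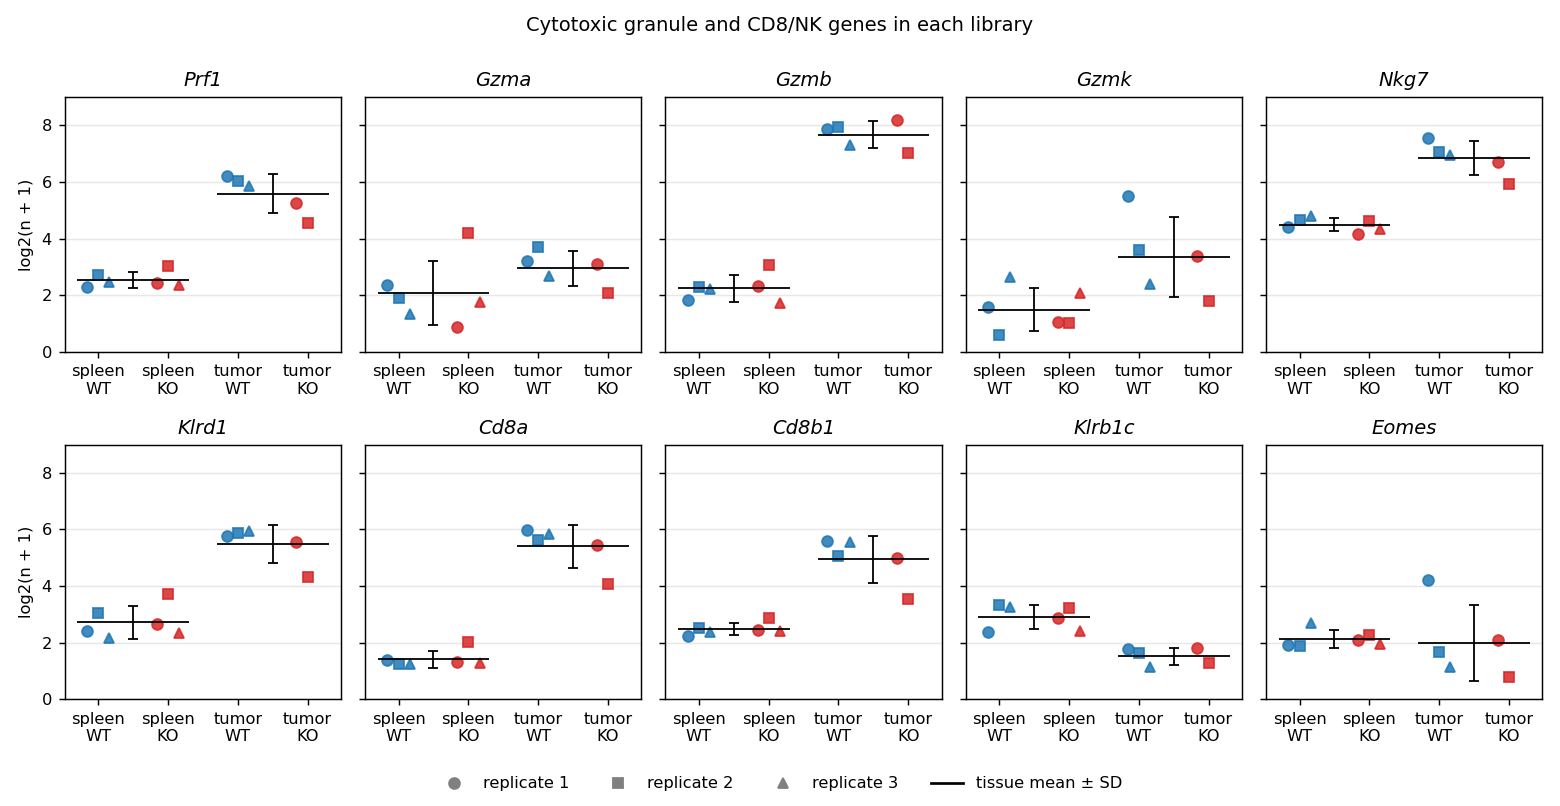
Level in log2(n + 1) of each of the 10 genes in each library, by tissue and genotype (blue WT, red KO, marker shape by replicate number), with lines for the mean of each tissue and bars for its SD. The tumor libraries lie apart from and above the spleen libraries for Prf1, Gzmb, Nkg7, Klrd1, Cd8a and Cd8b1, and below them for Klrb1c, while Gzma, Gzmk and Eomes overlap.

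Gzmb encodes granzyme B, the protease that activates caspases in the target cell. Its level was 7.87, 7.95 and 7.29 in the tumor WT libraries and 8.20 and 7.04 in the tumor KO libraries, and 1.74 at the lowest, 2.25 at the median and 3.08 at the highest in spleen. The tissues were separated by a gap of 3.96 between the highest spleen and the lowest tumor library. The mean over 6 spleen libraries was 2.24 ± 0.48 (SD) and that over 5 tumor libraries 7.67 ± 0.48 (SD), a difference of 5.43 (SE 0.25, limma adjusted p = 8.17e-10), or 43.1-fold on n + 1. This was the 79th highest difference of the 13897 genes tested.

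Prf1 encodes perforin. Its tumor levels were 6.21, 6.04 and 5.85 in WT and 5.25 and 4.53 in KO, and its spleen levels ran from 2.28 through a median of 2.46 to 3.04. All tumor libraries were above all spleen libraries, with both KO libraries at the low end of the tumor range. The mean went from 2.55 ± 0.28 to 5.58 ± 0.69, a difference of 3.03 (SE 0.26, limma adjusted p = 2.63e-07), or 8.17-fold on n + 1.

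Nkg7 encodes a membrane protein of cytotoxic granules that takes part in their release. It was already at 4.17 to 4.79 in spleen (median 4.50), with little spread, and at 7.57, 7.05 and 6.96 in tumor WT and 6.71 and 5.94 in tumor KO libraries. The groups of the 2 tissues did not overlap. The difference was 2.35 (SE 0.23, limma adjusted p = 6.80e-07), or 5.10-fold on n + 1.

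Gzma and Gzmk encode the trypsin-like granzymes A and K. Gzmk was at 5.5, 3.59 and 2.39 in tumor WT, 3.39 and 1.81 in tumor KO, and 0.60 to 2.62 in spleen (median 1.3). It had the widest tumor range of the 10 genes, and 2 tumor libraries lay within the spleen range. Its difference was 1.85 (SE 0.57, limma adjusted p = 0.00928, exact two-sided permutation p = 0.0216). It was 1.11 when 5 in place of 1 was added to n, and the Bonferroni-adjusted p was 1 (range of adjusted p over all alternatives 0.000241 to 1).

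Gzma was at 3.19, 3.69 and 2.69 in tumor WT, 3.10 and 2.06 in tumor KO, and 0.89 to 4.18 in spleen (median 1.83). The highest of all 11 libraries was a spleen library, KO replicate 2, and the other spleen libraries were at 2.36 or below. The difference of 0.87 (SE 0.49) missed the threshold (limma adjusted p = 0.118). Without spleen KO replicate 2 it was 1.29 with a limma adjusted p of 0.00265, the lowest in a range up to 1 over all alternatives. The call thus depended on that library, and also on the scaling, as given below. Several marker lists, though not all, also had their highest spleen sum in spleen KO replicate 2. The NK-defining markers were at 5.71 there against 4.91 to 5.57 in the other spleen libraries, and Cd8a with Cd8b1 at 3.36 against 2.65 to 2.82. B-cell markers were at 8.62 against 7.50 to 8.27, while myeloid markers were highest in spleen WT replicate 1. A part of other cells in the Gzma value was not tested.

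Klrd1 encodes CD94, which pairs with NKG2 receptors on NK cells and activated CD8+ T cells. It was at 5.75, 5.87 and 5.94 in tumor WT, 5.55 and 4.31 in tumor KO, and 2.16 to 3.73 in spleen (median 2.52). Tumor KO replicate 2 was the lowest tumor library and spleen KO replicate 2 the highest spleen library, and they were still 0.58 apart. The difference was 2.76 (SE 0.32, limma adjusted p = 4.34e-06), or 6.79-fold on n + 1. Klrc1, which encodes the NKG2A partner of CD94, was higher by 3.36 (SE 0.27, limma adjusted p = 1.42e-07).

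Klrb1c encodes NK1.1, the surface antigen used to stain NK cells in C57BL mice. It was at 1.76, 1.62 and 1.13 in tumor WT, 1.80 and 1.28 in tumor KO, and 2.39 to 3.32 in spleen (median 3.04). Every tumor library was below every spleen library, the only such gene of the 10. The mean was 2.91 ± 0.43 in spleen and 1.52 ± 0.30 in tumor, a difference of -1.39 (SE 0.20, limma adjusted p = 3.48e-05). The difference was -0.75 when 5 was added to n, and the Bonferroni-adjusted p was 0.207 (range of adjusted p over all alternatives 1.15e-06 to 0.207). The overlapping gene Gm44511 has no value among the listed genes, and what it adds to the Klrb1c values was not tested.

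Cd8a and Cd8b1 encode the alpha and beta chains of CD8. The alpha chain can form a homodimer, and the beta chain reaches the surface only with the alpha chain. Cd8a was at 5.98, 5.63 and 5.85 in tumor WT, 5.46 and 4.07 in tumor KO, and 1.23 to 2.01 in spleen (median 1.3). The difference was 3.99 (SE 0.29, limma adjusted p = 5.28e-08), or 15.9-fold on n + 1. Cd8b1 was at 5.05 to 5.58 in tumor WT, 5.0 and 3.55 in tumor KO, and 2.23 to 2.86 in spleen (median 2.42), a difference of 2.48 (SE 0.30, limma adjusted p = 5.84e-06). Neither gene overlapped between tissues, and for both the lowest tumor library was KO replicate 2 and the highest spleen library KO replicate 2.

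Eomes encodes a T-box factor of memory CD8+ T cells and NK cells. It was at 4.23, 1.68 and 1.13 in tumor WT, 2.08 and 0.80 in tumor KO, and 1.87 to 2.68 in spleen (median 2.01). One library, tumor WT replicate 1, was above all spleen libraries, while 3 tumor libraries were below them all. The difference was -0.15 (SE 0.48, limma adjusted p = 0.792). Without tumor WT replicate 1 it was -0.71 with a limma adjusted p of 0.0181, the lowest in a range up to 1 over all alternatives, and the count of genes called lower was then 2. The sign of the Eomes difference was positive under 4 of the alternatives, so it has no settled direction. The same library also had the highest Gzmk value, 5.5, and the highest summed T-cell lineage level in tumor, 11.8.

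In exact two-sided permutation tests over all 462 ways to divide the libraries into 6 and 5, the 7 genes without overlap reached p = 0.0043, the smallest value this design can give. The p was 0.165 for Gzma and 0.887 for Eomes.

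**Figure D2:**
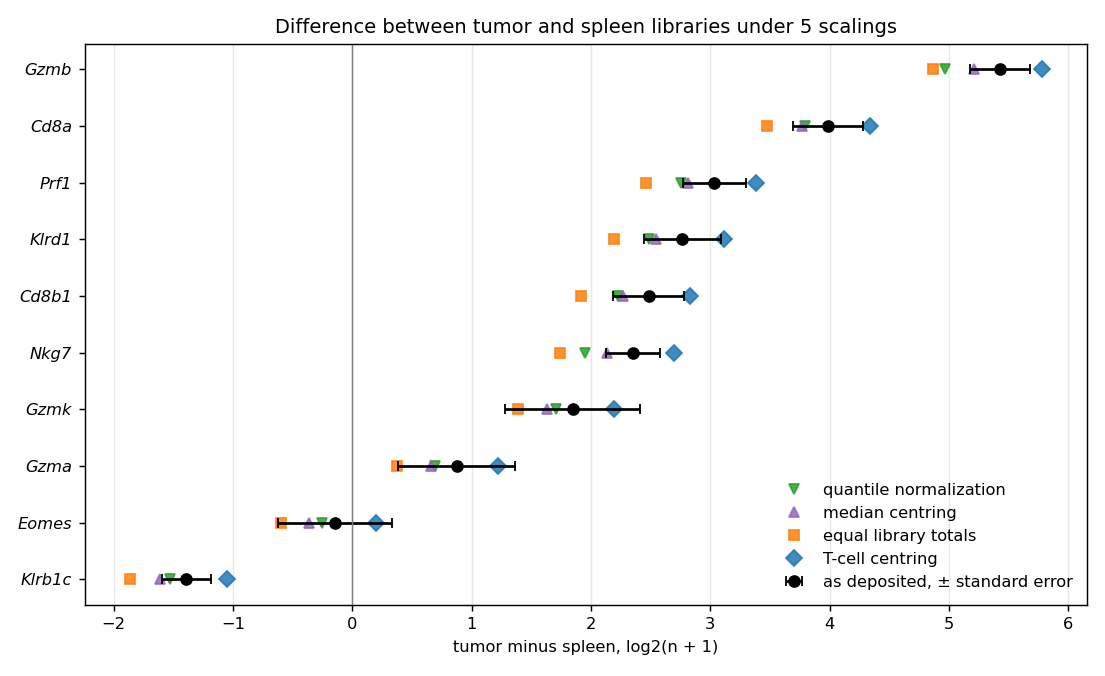
Difference in log2(n + 1) between 5 tumor and 6 spleen libraries for each gene, as deposited with its standard error (black) and under other scalings of the libraries (colored markers). The order from Gzmb (5.43) to Klrb1c (-1.39) and the sign hold under the 5 scalings shown except for Eomes, which is at 0.20 with centring on the T-cell genes Cd3d, Cd3e and Cd3g.

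Scaling moved all genes together. The median over all tested genes was 0.08 as deposited, -0.44 with equal library totals, -0.16 after quantile normalization, -0.14 with median centring and 0.43 when each library was centred on the mean of Cd3d, Cd3e and Cd3g. Cd8a, for example, differed by 3.48 with equal totals and by 4.33 relative to the Cd3 genes, and Klrb1c by -1.86 and -1.05. Relative to the Cd3 genes Gzma passed the test, with a difference of 1.22 (limma adjusted p = 0.0210, in a range of 0.00265 to 1 over all alternatives).

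The next comparison took pairs of genes within a library, where a factor common to the library largely cancels, and asked whether their difference changed between tissues. In 9 of 10 pairs the tumor and spleen libraries did not overlap (exact two-sided permutation p = 0.0043, 0.0048 after Benjamini-Hochberg adjustment over the 10 pairs). Such separation was common, since 62.8% of all pairs of tested genes did not overlap between tissues. Cd8b1 minus Cd8a was 1.06 on average in spleen and -0.45 in tumor. It held within a narrow range, 0.85 to 1.29 in the 6 spleen and -0.58 to -0.29 in the 5 tumor libraries, so Cd8a rose by 1.51 more than Cd8b1 (0.91 when 5 was added to n). Cd8a minus Cd4 went from -6.31 to -1.90.

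The granule genes also moved unequally. Gzmb minus Prf1 went from -0.31 to 2.09, and Gzmb minus Cd8a from 0.83 to 2.27. Gzma minus Gzmb went from -0.17 to -4.72 and Gzmk minus Gzmb from -0.75 to -4.34. The tumor-minus-spleen difference was thus larger for Gzmb than for Prf1, Cd8a, Gzma and Gzmk. Gzmb minus Foxp3 changed most, from -4.11 to 2.17, and Nkg7 minus Cd3e went from -3.67 to -0.70. Among NK receptor genes, Klrb1c minus Klrd1 went from 0.19 to -3.96. Eomes minus Tbx21, 2 T-box genes, went from -1.24 to -2.63 with overlap (exact two-sided permutation p = 0.0303, adjusted 0.0303), since tumor WT replicate 1 was at -0.48.

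**Figure D3:**
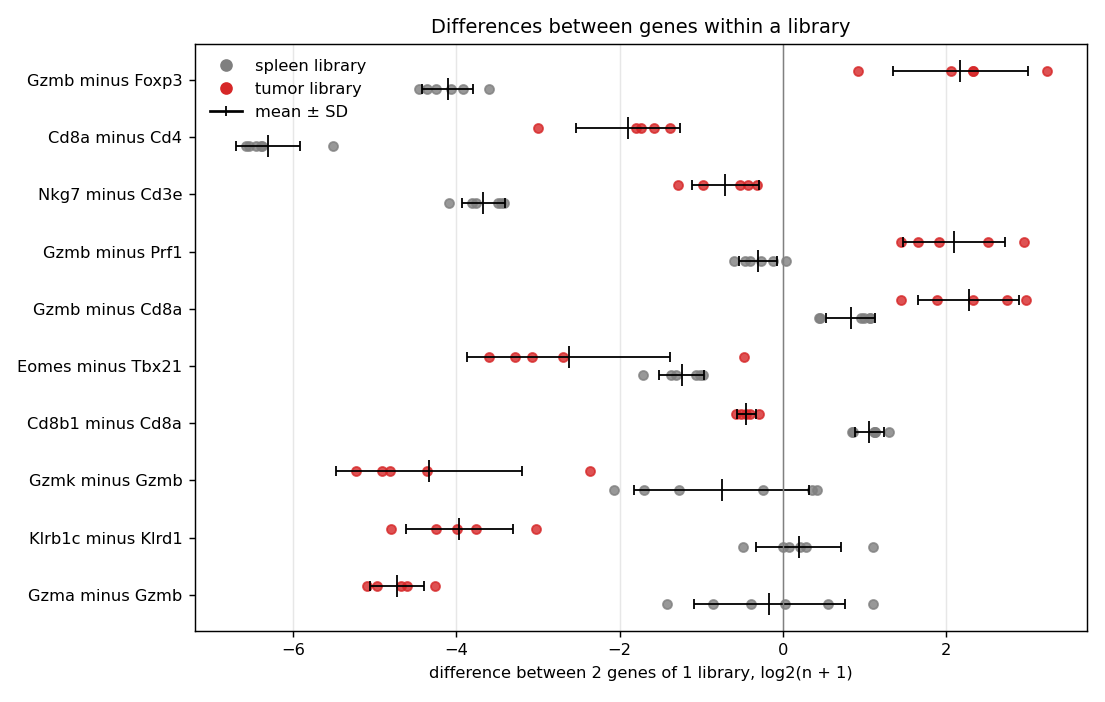
Difference in log2(n + 1) between 2 genes of the same library, 1 point for each of 6 spleen (gray) and 5 tumor (red) libraries, with the mean and SD of each tissue. Cd8b1 minus Cd8a has the tightest groups, around 1.06 in spleen and -0.45 in tumor, and only Eomes minus Tbx21 overlaps between tissues.

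Within each genotype the pattern was much the same by count. In WT mice 8 of the 10 genes were called between tissues (7 higher, 1 lower; 70.5% of all genes were called), and in KO mice 7 (6 higher, 1 lower; 65.7% of all genes). Gzmk accounted for the changed count, with a difference of 2.23 in WT (SE 0.76, limma adjusted p = 0.0225) and 1.22 in KO (SE 0.85, limma adjusted p = 0.230). Its difference of differences was -1.01 (SE 1.14, limma adjusted p = 0.9997), so the genotypes were not shown to differ. No gene of the 10 was called for the interaction of tissue and genotype, and 0% of all genes were, while 4 of the 10 (Prf1, Cd8a, Cd8b1 and Klrd1) and 383 of all genes had an unadjusted limma p below 0.05.

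The genotype comparisons set KO against WT libraries within a tissue. KO mice differed from WT mice by the FOXP3-CreYFP allele as well as by any deletion of Cd177. No group carried FOXP3-CreYFP without the floxed gene, so these cannot be told apart. In spleen none of the 10 genes was called by limma, 0% of all genes were, and none of the 10 had an unadjusted p below 0.05 (281 of all genes did). The spleen differences, KO minus WT, ran from -0.24 for Nkg7 (SE 0.22) to 0.40 for Gzma (SE 0.69). In tumor none of the 10 was called by limma either, against 0.0072% of all genes, which is 1 gene. In tumor 9 of the 10 differences were negative, and 4 had an unadjusted p below 0.05 (634 of all genes did). The share of negative differences over all tested genes was not counted. A single library, tumor KO replicate 2, was the lowest tumor library in 9 of the 10 genes.

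Prf1 was lower by 1.14 in tumor KO than in tumor WT libraries (SE 0.25, limma adjusted p = 0.564), and both KO values were below all 3 WT values. The difference was -1.12 for Cd8b1 (SE 0.35), -1.06 for Cd8a (SE 0.35) and -0.87 for Nkg7 (SE 0.25), all with limma adjusted p of at least 0.879. Gzmb differed by -0.08 (SE 0.40), and the KO libraries included both its highest and its lowest tumor value. Without tumor KO replicate 2 the Cd8a difference was -0.36 (SE 0.28), the Cd8b1 difference -0.39 (SE 0.26) and the Prf1 difference -0.78 (SE 0.28). Without tumor KO replicate 1 the Cd8a difference was -1.75 (SE 0.28), the Cd8b1 difference -1.85 (SE 0.26) and the Klrd1 difference -1.55 (SE 0.48). Each of these fits rests on 1 tumor KO library, which is assumed to vary like the libraries of the other groups. None of the 10 differences passed the correction with both libraries or with either alone.

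**Figure D4:**
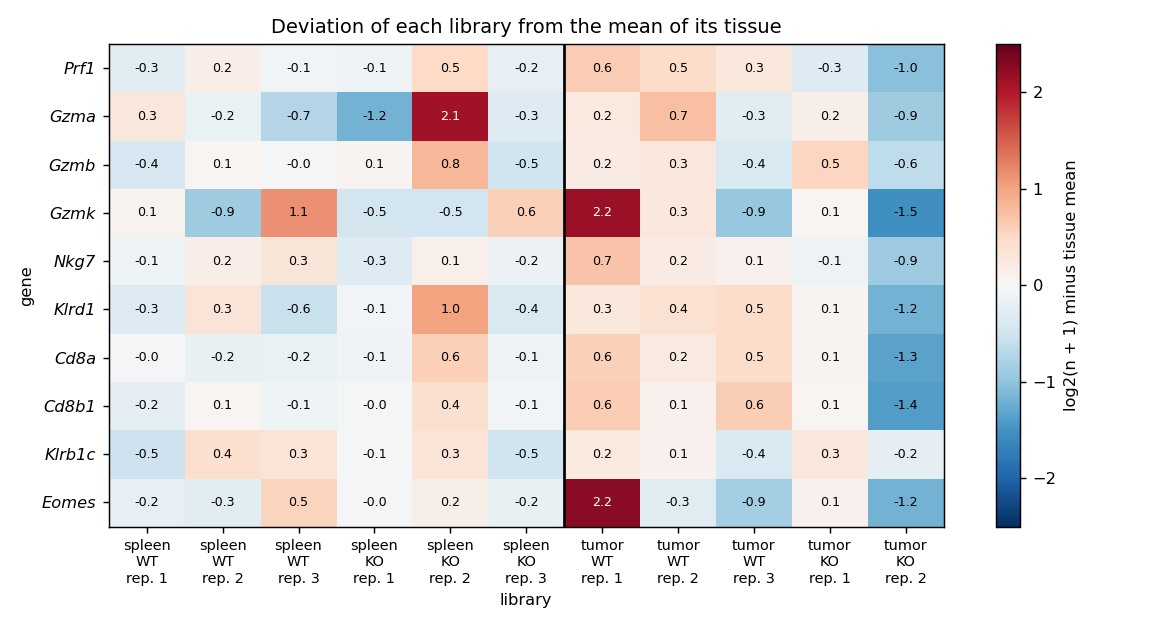
Level of each gene in each library minus the mean of its tissue, in log2(n + 1), with red above and blue below the mean and a line between spleen and tumor. Tumor KO replicate 2 is below the tumor mean for all 10 genes, and spleen KO replicate 2 is above the spleen mean for 9 of them.

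Certain libraries stood at the end of the range for many of the genes. Tumor KO replicate 2 was the lowest tumor library in 9 of the 10 genes, against 18.4% of all tested genes, and also in 11 of 17 T-cell lineage genes and in none of 14 myeloid markers. Tumor WT replicate 1 was the highest tumor library in 6 of the 10 genes, against 17.1% of all tested genes, and in 13 of the 17 T-cell lineage genes. The mean level of Cd3d, Cd3e and Cd3g was 7.71 in tumor WT replicate 1 and 6.91 in tumor KO replicate 2, the ends of the tumor range. Relative to that mean, tumor KO replicate 2 was still the lowest tumor library in 7 of the 10 genes. The share of all tested genes lowest in that library on this scale was not counted. Cd8a, for example, was 2.84 below the Cd3 mean there and 1.44 to 1.93 below it in the other tumor libraries. Gzmb was 0.13 above the Cd3 mean in that library, within the range of 0.01 to 0.85 of the other 4. Spleen KO replicate 2 was the highest spleen library in 6 of the 10 genes (15.3% of all tested genes) and in 10 of 17 NK receptor and adaptor genes.

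The other genes of the granule pathway were described from a list of 22, of which 17 were listed and tested. Of these, 10 were higher in tumor, 1 was lower and 6 did not pass the test, with a median of 0.87. Among all tested genes 43.1% were called higher and 35.9% lower. Gzmc, another granzyme gene, was higher by 5.17 (SE 0.16, limma adjusted p = 3.34e-11), from 0.77 ± 0.33 to 5.95 ± 0.22. Srgn, which encodes the granule proteoglycan serglycin, was higher by 2.62, and Ctsc, which encodes the protease that activates granzymes, by 4.14. Serpinb9, which encodes an inhibitor of granzyme B, was higher by 2.52. Unc13d, needed for granule fusion, was lower by 1.18 (SE 0.08). Rab27a (-0.06), Stxbp2 (-0.13), Ctsw (0.44), Gzmm (0.03), Crtam (0.11) and Tnfsf10 (-0.24) did not pass the test. Ifng, the cytokine gene of activated cytotoxic and Th1 cells, was higher by 1.71. Srgn, Ctsc and the lysosomal gene Lamp1 (higher by 3.0) are also made by myeloid cells.

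Of 23 NK receptor and adaptor genes, 17 were tested, and 10 were higher, 3 lower and 4 did not pass (median 2.05). The shares over all tested genes were 43.1% higher and 35.9% lower. Klrk1, which encodes NKG2D, was higher by 2.05 and Klrg1 by 2.60. The adaptor genes Tyrobp and Fcer1g, which myeloid cells also use, were higher by 5.0 and 4.70. Cd160 (-1.47), Cd226 (-1.03) and Klrb1f (-0.70) were lower. The genes listed as NK-defining gave another count. Of 6 tested, Klre1 was higher (2.05), Klrb1c and Txk (-1.94) were lower, and Ncr1 (0.27), Klra9 (-0.02) and Eomes did not pass, with a median of -0.08. Their summed level was 4.91 to 5.71 in spleen and 3.69 to 5.26 in tumor. Txk, which T cells also express, was the largest term of the spleen sums, at a mean of 4.70 against 2.77 in tumor. These sums thus do not describe NK cells alone. Ncr1, which encodes NKp46, was at 1.25 ± 0.69 and 1.52 ± 0.34. Klra4 and Klra8 are not in the table used. Klrb1c and Eomes are in this list and among the 10 genes.

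The CD8-defining genes are Cd8a and Cd8b1 themselves, with a summed level of 2.65 to 3.36 in spleen and 4.78 to 6.79 in tumor. Of the CD4 and CD8 lineage regulators, Runx3, which is needed for CD8 lineage choice, was higher by 0.95 (SE 0.10, limma adjusted p = 2.29e-06), Tbx21 by 1.24 and Zeb2, also made by myeloid cells, by 4.06. Zbtb7b, which encodes the CD4 lineage factor ThPOK, was lower by 0.64 (SE 0.06) and Cd4 by 0.42 (SE 0.11). Of 6 genes of dendritic cells that can carry CD8 alpha, 5 were higher, against 43.1% of all tested genes. These were Xcr1 (0.29), Clec9a (0.57), Batf3 (1.92), Zbtb46 (0.97) and Wdfy4 (2.41), while Flt3 (0.41) did not pass. The summed level of the 6 genes was 3.25 to 4.65 in spleen and 5.46 to 5.89 in tumor. Wdfy4 was the largest term of the tumor sums, at a mean of 4.91. Clec9a was low in both tissues, at means of 0.37 in spleen and 0.94 in tumor, as was Xcr1, at 1.39 and 1.68. The gamma-delta T and NKT genes Tcrg-C1 (-1.42) and Zbtb16 (-1.34) were lower, and Tcrg-C2 (0.70) did not pass. Of the mast cell and basophil genes, Ms4a2 was lower by 1.66 and Gata2 (-0.26) did not pass.

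Genes of effector Tregs moved in the same direction as most of the 10 genes. Of 20 such genes, 18 were higher in tumor and 2 did not pass the test, Irf4 (0.35) and Itgae (0.51), with a median of 2.23. Over all tested genes 43.1% were called higher and 35.9% lower. The largest differences of the list were those of Havcr2 (4.91) and Areg (4.77). Prdm1, which encodes Blimp-1, was higher by 2.56, Tnfrsf9 (4-1BB) by 3.33, Icos by 2.21 and Ccr8 by 2.44. Their summed level was 9.47 to 9.86 in spleen and 11.37 to 11.73 in tumor. Activated CD8+ T cells can also express many of these genes, such as Prdm1, Tnfrsf9 and Icos, so the list is not particular to Tregs. A part of other cells, such as myeloid cells, in these values was not tested. Klrg1 is in this list and in that of the NK receptor genes. Foxp3 was lower by 0.85 (SE 0.22, limma adjusted p = 0.00357), as were 7 of 9 Treg identity and sort genes, while Tnfrsf18 (GITR), on which the cells were sorted, was higher by 1.08.

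**Figure D5:**
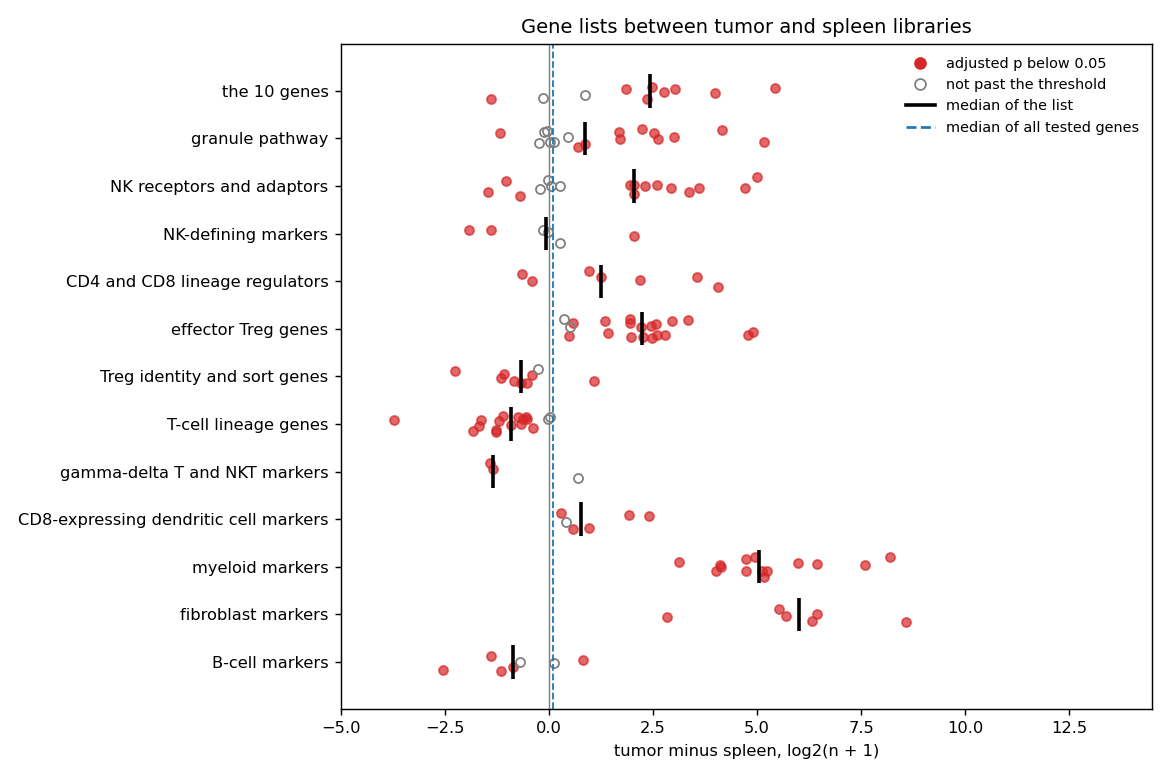
Difference in log2(n + 1), tumor minus spleen, of each tested gene of 13 lists (1 point a gene, filled where the limma adjusted p is below 0.05), with the median of each list as a black bar and that of all tested genes as a dashed line. The medians are 2.42 for the 10 genes and 2.23 for effector Treg genes, -0.08 for NK-defining markers and 5.04 for myeloid markers.

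Genes of cells outside the gate also moved with tissue, where 43.1% of all tested genes were called higher and 35.9% lower. All 14 myeloid markers tested of 16 were higher, with a median of 5.04 and a summed level of 8.22 to 9.16 in spleen and 13.67 to 14.20 in tumor. All 6 fibroblast markers tested of 9 were higher, with a median of 6.02 and sums of 3.16 to 4.37 and 10.01 to 11.20. Of 17 T-cell lineage genes, 15 were lower and 2 did not pass (median -0.92). B-cell markers were lower in 4 of 7 cases and higher in 1, Ebf1. Of the erythroid and platelet markers, 6 of 7 were lower and Pf4, which macrophages can also make, was higher by 6.34, with sums of 7.22 to 10.18 in spleen and 8.09 to 9.29 in tumor. Of the epithelial markers Cdh1 was higher by 3.32 while Epcam (-0.20) did not pass. Whether Tregs, CD8+ T cells, NK cells or other cells in the sort carried the transcripts of the 10 genes was not tested, and the parts of these cells cannot be told apart in RNA of pooled cells.

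Likeness over the 11 libraries was measured as the root mean square difference of mean-centred levels, so that 0 is the same pattern. Klrd1 and Prf1 were among each other's nearest genes at 0.32, and the gene nearest to Prf1 was Klrc1 at 0.30. Cd8b1 was nearest to Nkg7 at 0.29, followed by the NK receptor gene Klri2 at 0.31 and Klrd1 at 0.34. Gzmb was nearest to Gzmc at 0.33. Cd8a had Mgst1 (0.39), the macrophage gene Gpnmb (0.41) and Klrc1 (0.44), and Gzmk had Rgs16 (0.52) and Ifng (0.58). Klrb1c was nearest to Txlng (0.23), Gzma to the B-cell factor gene Ebf1 (0.49), Nkg7 to the chemokine gene Cx3cl1 (0.26) and Eomes to Il4 (0.54). The values rest mostly on the tissue difference, which the 11 points share.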

How the data were processed

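Libraries were made from ribosome-depleted RNA of Tregs sorted out of MC38 tumors and out of the spleens of the mice that carried them. The authors used kallisto with mm10 and then sleuth 0.30.0 (tools and build as in the submitters' processing notes), aggregated the estimates by gene symbol and deposited log2 values, log2(n + 1), for 14604 genes in 11 libraries. How n was scaled, which annotation was used and which version of kallisto are not given in these sources. The methods state an approximate read depth common to the libraries, but the reads behind each value cannot be taken from n, so no counting interval is given and the spread between libraries sets the precision.

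The titles gave each sample's tissue and genotype. The values were not normalized further. Genes with a mean of at least 0.5 were tested (13897, with 707 removed) with limma 3.58.1 in R 4.3.3 (lmFit, eBayes with a trend), tumor against spleen with genotypes pooled and, with the 4 group means, the comparisons within genotype and tissue. Benjamini-Hochberg adjustment covered all tested genes. Single values were compared by exact two-sided permutation tests (Python 3.11.15, numpy 2.4.6, pandas 2.3.3). The fit was tested on simulated data. Genes named are the 10 genes, those of the lists, and the 3 nearest genes of each of the 10 by root mean square difference. The 10 genes and the lists were chosen with earlier results of these data known. Positions are from GENCODE M21 and promoters from RefSeq. Of the promoter entries only the bases before the start site were used. Alternatives were other scalings, pseudocounts of 0.1 and 5, filters, corrections, array weights, a genotype term, a replicate block and leaving out each library. Scaling to equal totals without the row Gm12896 was added after seeing the data.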

Additional observations from a re-analysis of the deposited data

Results flagged for a closer look

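Dixon's test was applied to each of the 10 genes and each of the 10 within-library differences in the 6 spleen and the 5 tumor libraries. It marked a library apart in 6 of 40 groups, where chance gives about 1 in 20, or 2. The groups are not independent, since the within-library differences reuse the values of the genes, as Cd8a minus Cd4 does for Cd8a. The count can therefore not show an excess over chance. All 6 concern replicate 2 of the KO mice, in tumor or in spleen.

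In tumor KO replicate 2, Klrd1 was at 4.31, below 5.55 to 5.94 in the other tumor libraries. Cd8a was at 4.07 there against 5.46 to 5.98, and Cd8b1 at 3.55 against 5.0 to 5.58. Cd8a minus Cd4 was -3.0 in that library and -1.80 to -1.38 in the others. In spleen KO replicate 2, Cd8a was at 2.01 against 1.23 to 1.38 in the other spleen libraries, and Cd8a minus Cd4 was -5.51 against -6.57 to -6.38. The cause was not tested. The same number does not show that these samples came from 1 mouse.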

How the results depend on the processing

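The count of genes higher in tumor was 7 and ran from 6 to 8 over 25 alternatives. The count lower was 1, ran from 1 to 2 when a library was left out, and was 0 with Bonferroni correction. The count called in WT mice was 8 (7 to 9 without 1 library) and 5 with Bonferroni correction, and in KO mice 7 (6 to 8 without 1 library) and 3 with Bonferroni correction. The counts of 0 for the interaction and for genotype within tissue stayed at 0 under every alternative run. Prf1, Gzmb, Nkg7, Klrd1, Cd8a and Cd8b1 kept their direction and call under all 25 alternatives, with Gzmb at 4.56 to 5.78, Cd8a at 2.80 to 4.56 and Prf1 at 2.40 to 3.38. The sign of Eomes turned with centring on the Cd3 genes (0.20), with a pseudocount of 5 (0.037), and without tumor WT replicate 3 (0.069) or tumor KO replicate 2 (0.15) and was -0.71, past the threshold, without tumor WT replicate 1. The cause was not tested. Eomes minus Tbx21 had an adjusted p of 0.067 without any 1 of tumor WT replicates 2 and 3 and tumor KO replicates 1 and 2, in a range from 0.0095. The other 9 within-library differences kept their direction and their side of the threshold.

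Spleens came from the tumor-bearing mice, but whether a number marks a mouse is not stated. Deviations of same-numbered tumor and spleen libraries from their group means correlated at -0.13 to 0.04, and those of differently numbered ones at -0.08 to 0.12. With so few libraries in a group these values can neither show nor exclude pairing. The numbers were not taken to pair the samples. With a replicate block 7 genes were higher and 1 lower, the same counts as without it. What depth limits was not assessed, since the reads behind each value cannot be taken from n.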
